A study of Mus musculus with 32 samples.

Results

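The 9 genes described here are outputs and accessory regulators of the circadian clock: Tef, Hlf, Nfil3, Bhlhe40, Bhlhe41, Ciart, Noct, Rora and Npas2. They were taken by symbol and mapped to mouse Ensembl identifiers with the GENCODE annotation of mm10, and all 9 were among the 25058 genes present in the files of every assay. The study measured cisplatin damage by Damage-seq, excision repair by XR-seq and gene expression by RNA-seq in mouse kidney, liver, lung and spleen. Cisplatin is a platinum drug that joins neighbouring guanines (GG) on a DNA strand. Damage-seq maps the adducts that remain, and XR-seq maps the short oligomers that nucleotide excision repair cuts out around them. Both were counted per gene on the transcribed strand (TS) and on the non-transcribed strand (NTS).

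All mice were wild-type C57BL/6J females of 6 to 7 months kept on 12 h of light and 12 h of dark. Treated mice received 10 mg cisplatin per kg by intraperitoneal injection, and control mice received the same volume of 154 mM saline. The protocol places the injection at ZT1 and the killing at ZT5, which is 4 h, whereas the sample labels give 2 h. ZT counts hours from lights on, so every value stands for a single clock time in the light phase. Damage-seq and XR-seq held 2 libraries of cisplatin-treated mice per organ and no control arm, and RNA-seq held 2 control and 2 cisplatin libraries per organ. The control and cisplatin labels of the lung and spleen RNA-seq libraries are annotated as exchanged at first and corrected later. They are used here as they now stand. These are whole organs, so fewer cells of a type and less RNA per cell cannot be told apart.

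In the core clock, CLOCK and BMAL1 bind E-boxes and switch on their own repressors. The accessory genes shape that loop and carry its rhythm outward. TEF and HLF, with DBP, are PAR bZIP factors that activate genes through D-boxes, and NFIL3 (also E4BP4) represses the same sites. BHLHE40 and BHLHE41 (DEC1 and DEC2) and CIART (also CHRONO) repress transcription driven by CLOCK and BMAL1. RORA is a nuclear receptor that activates Bmal1 through ROR elements, NPAS2 is a relative of CLOCK that can take its place beside BMAL1, and nocturnin, encoded by Noct, is a phosphatase whose RNA is strongly rhythmic in liver.

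The upstream sequences are shown first because E-boxes, D-boxes and ROR elements are the sites through which these genes are known to act on each other. RefSeq gave windows of 250 bases upstream of the start for 8 of the 9 genes, with a pair of windows for Tef. Bhlhe40 had none. Searched on both strands, the E-box CACGTG was found upstream of Ciart, Bhlhe41 and Tef, the D-box TTANNTAA upstream of Tef, a ROR element (TAGGTCA or TGGGTCA) upstream of Nfil3, and a cAMP response element (TGACGTCA or TGACGCAA) upstream of Hlf. The glucocorticoid response element and the p53 element were found upstream of none of the 8. Among all 32851 windows of the same length, 6.02% held the E-box, 5.43% the D-box, 5.38% a ROR element, 1.97% a cAMP response element, 0.387% the glucocorticoid element and 0.00913% the p53 element. Each stretch is written 5′ to 3′ on the strand of the gene, with the motif in capitals and GRCm38.p6 coordinates.
Ciart, minus strand of chr3:95882255-95882356, 128 to 27 bases upstream, shown for its 3 E-boxes: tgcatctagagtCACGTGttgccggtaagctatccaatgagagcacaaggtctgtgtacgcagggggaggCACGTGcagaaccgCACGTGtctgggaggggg
Bhlhe41, minus strand of chr6:145865556-145865585, shown for its E-box: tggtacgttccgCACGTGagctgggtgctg
Tef, plus strand of chr15:81802488-81802517, first window, shown for its D-box: cctttgcaaagTTAGATAAcaggccgggtt
Tef, plus strand of chr15:81802534-81802563, first window, shown for its E-box: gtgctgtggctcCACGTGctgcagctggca
Tef, plus strand of chr15:81811264-81811293, second window, shown for its E-box: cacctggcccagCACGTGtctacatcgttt
Nfil3, minus strand of chr13:52981040-52981069, shown for its ROR element on the opposite strand: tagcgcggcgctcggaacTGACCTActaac
Hlf, minus strand of chr11:90390918-90390947, shown for its cAMP response element: atcggcgcgcggtgcgggcccTGACGTCAc
Ciart thus carried 3 E-boxes in its window, more than any other of the genes with one. A motif is a match of letters only, and binding was not measured. The Nfil3 stretch and those of the first Tef window lie in GENCODE exons.

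The genes differ widely in size, and with it in the reads that damage and repair can give. Ciart (chr3:95878503-95882251, minus strand) spans 3.7 kb, Bhlhe40 (chr6:108660629-108666925, plus) 6.3 kb, Bhlhe41 (chr6:145858243-145865558, minus) 7.3 kb, Nfil3 (chr13:52967209-52981073, minus) 13.9 kb, Tef (chr15:81802421-81826863, plus) 24.4 kb and Noct (chr3:51224447-51251644, plus) 27.2 kb. Hlf (chr11:90336536-90390895, minus) spans 54.4 kb, Npas2 (chr1:39193731-39363236, plus) 169.5 kb and Rora (chr9:68653786-69388246, plus) 734.5 kb. The whole of Ciart is overlapped by an antisense gene, C920021L13Rik (chr3:95871522-95889093, plus), which is also counted in the files. An antisense gene, Gm43909, covers 25.6% of Bhlhe41, and antisense genes cover 4.9% or less of Bhlhe40, Rora, Tef and Npas2. The RNA-seq kit does not mark strand and no strand setting is stated for its counting, so RNA reads of Ciart and of C920021L13Rik cannot be told apart.

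Reads on genes ranged from 15619474 to 162270280 per RNA-seq library, from 10658675 to 59779770 in XR-seq and from 1571167 to 6441367 in Damage-seq. The control pairs of lung and of spleen were nearly as alike as repeated draws of reads would be, with an index (chi-square over degrees of freedom) of 2.75 and 2.98 against 39.3 to 349 in the other RNA-seq pairs. Each of these control pairs was therefore summed and counted as 1 sample, so that lung and spleen have 1 control sample each. The Damage-seq pairs had indices of 1.43 to 3.11, all but the NTS of kidney at or below the same limit of 3, and were kept as 2 samples, since summing them would leave no residual degrees of freedom. The p-values of Damage-seq thus rest on pairs that differed by little more than counting error. The study calls its replicates biological, but the labels tie no library to an animal, and the p-values measure only the spread between these libraries, which may be technical. Cdkn1a, a p53 target used to check the labels, had higher values after cisplatin in all 4 organs, by 4.33 ± 0.75 (log2 ± SE), 3.05 ± 0.70, 1.90 ± 0.88 and 1.43 ± 0.85 in kidney, liver, lung and spleen, with adjusted p = 0.0129, 0.0528, 0.727 and 1. The other p53 targets listed for this check, Mdm2, Ccng1 and Phlda3, were less uniform. They had 1.87 ± 0.33, 0.62 ± 0.24 and 1.46 ± 0.42 in kidney and 0.83 ± 0.32, 0.56 ± 0.24 and 1.82 ± 0.44 in liver. In lung they had 0.51 ± 0.40, 0.17 ± 0.29 and 0.28 ± 0.50. In spleen they had -0.20 ± 0.38, -0.03 ± 0.29 and 0.84 ± 0.52, so the check says little about the labels of lung and spleen. Markers of each organ were highest in that organ.

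In control mice the level of all 9 genes differed among organs (edgeR F test, adjusted p between 4.03e-07 and 0.00441), as did that of 69.1% of all genes tested. Levels are given as RPKM, in which reads are scaled to the exon length of the gene and to the size of the library. Nfil3 ran from liver (45.7 and 58.0 RPKM) through kidney (6.90 and 9.39) and lung (5.53 and 5.55) to spleen (3.53 and 3.58). Liver was 3.25 ± 0.20 (log2 ± SE) above the mean of the other 3 organs, with adjusted p = 6.34e-07, where 48.8% of all genes differed. Bhlhe41 had the opposite order, from spleen (5.73 and 5.89 RPKM) and lung (2.30 and 2.49) to kidney (0.609 and 0.652) and liver (0.154 and 0.181). No neighbours in either order overlapped.

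The PAR bZIP pair was highest in kidney. Tef stood at 24.1 and 33.9 RPKM in kidney, 18.1 and 18.3 in lung, 9.94 and 12.3 in liver and 6.32 and 6.44 in spleen. Hlf stood at 12.9 and 20.2 RPKM in kidney and 12.8 and 13.03 in liver, ranges that overlapped, and was lower at 3.66 and 3.78 in lung and 0.565 and 0.597 in spleen. Rora, Npas2 and Noct were highest in liver. Rora read 10.1 and 10.3 RPKM there, 4.82 and 5.08 in kidney, 3.73 and 3.96 in lung and 1.51 and 1.52 in spleen. Npas2 followed liver (2.65 and 4.44 RPKM) with lung (1.86 and 1.94), kidney (0.955 and 1.16) and spleen (0.183 and 0.284). The libraries of liver disagreed most for Noct, at 14.04 and 3.82 RPKM, and the other 3 organs overlapped between 1.17 and 1.79. Bhlhe40, at 33.2 and 44.0 RPKM in liver and 25.2 and 34.6 in kidney, was among the most abundant of the 9 genes per length, while Ciart was scarce everywhere, from 0.972 and 1.21 RPKM in lung to 0.163 and 0.246 in liver.

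**Figure D1:**
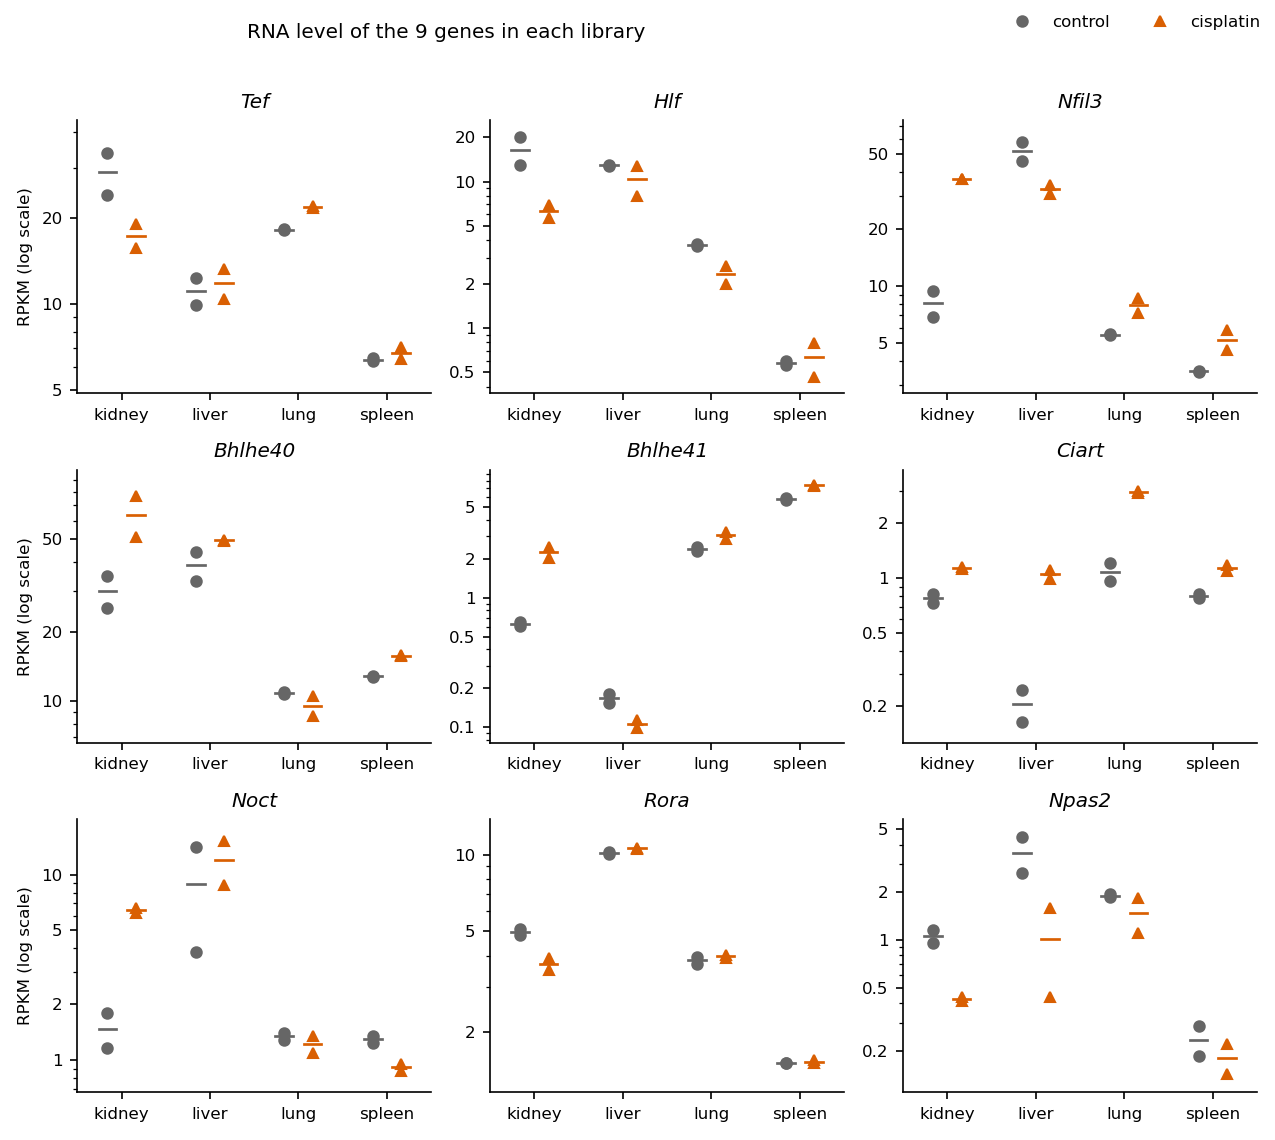
RNA level in RPKM (log scale) of the 9 genes in each RNA-seq library, for control (grey circles) and cisplatin (orange triangles) in kidney, liver, lung and spleen; bars are means of the pair of libraries. Nfil3 and Bhlhe41 in kidney and Ciart in liver and lung stand clear of their controls, while Rora lies level in liver, lung and spleen.

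The question of the RNA-seq arm is which of these genes changed after cisplatin in each organ. In kidney, 2 of the 9 rose, Nfil3 and Bhlhe41, and none fell, at an adjusted p under 0.05 (edgeR glmTreat in a single fit of all organs, which asks whether a log2 difference exceeds 0.4). The background was 3.12% of all genes called in kidney, 1.71% higher and 1.41% lower. Nfil3, the D-box repressor, read 6.90 and 9.39 RPKM in controls and 36.9 and 36.7 after cisplatin. It rose 4.50-fold (2.17 ± 0.24, log2 ± SE, adjusted p = 0.00187). Bhlhe41 read 0.609 and 0.652 RPKM in controls and 2.03 and 2.46 after cisplatin, a rise of 3.56-fold (1.83 ± 0.22, adjusted p = 0.00314). For both genes every treated library was above every control, and the call held in each of 24 alternative fits, with adjusted p up to 0.0212 for Nfil3 and 0.0376 for Bhlhe41. Bhlhe40, Nfil3, Noct and Bhlhe41 in kidney and Ciart in lung are among the genes that the study picked out on these same samples, so their direction there is not independent evidence.

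The other repressor and output genes of kidney lay on the same side without passing. Noct read 1.17 and 1.79 RPKM in controls and 6.61 and 6.21 after cisplatin, 4.32-fold apart (2.11 ± 0.50, adjusted p = 0.0622). Bhlhe40 read 25.2 and 34.6 RPKM in controls and 51.1 and 76.8 after cisplatin (1.10 ± 0.27, adjusted p = 0.110). Ciart read 0.732 and 0.820 RPKM and 1.15 and 1.13 (0.55 ± 0.34, adjusted p = 0.658). The libraries of the groups did not overlap for any of these 3 genes. With kidney fitted alone, Noct passed (2.11 ± 0.24, adjusted p = 0.0139) and Bhlhe40 did not (adjusted p = 0.100). Noct also passed with DESeq2 (adjusted p = 0.0322) and in the edgeR fit without the liver libraries (adjusted p = 0.003455).

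The activators lay on the other side. Hlf read 12.9 and 20.2 RPKM in kidney controls and 5.66 and 6.94 after cisplatin (-1.39 ± 0.33, adjusted p = 0.0741), and kidney fitted alone called it lower (adjusted p = 0.0453). Tef read 24.1 and 33.9 RPKM in controls and 15.7 and 18.99 after cisplatin (-0.74 ± 0.24, adjusted p = 0.285). Npas2 read 0.955 and 1.16 RPKM and 0.410 and 0.436 (-1.32 ± 0.55, adjusted p = 0.336), and Rora 5.08 and 4.82 RPKM and 3.53 and 3.92 (-0.41 ± 0.17, adjusted p = 0.692). No library of a treated kidney reached the control range for any of these 4 activators. The share of all genes whose kidney libraries separate in this way was not computed. Separation here and for the genes above is thus a description and adds no support to values that missed. The kidney alone thus called 4 of the 9, 3 higher and 1 lower, against 5.05% of all genes, 2.40% higher and 2.65% lower. The median difference of the 9 genes was 0.55 on the log2 scale, with 5 positive and 4 negative, and that of all genes tested was 0. Leaving out either cisplatin liver library also gave 4 calls in kidney. The 4 muscle markers, all in the files, summed to between 0.121 and 0.171 RPKM in kidney controls, where Ckm was at 0, and between 0.451 and 0.594 after cisplatin, while the 7 kidney markers overlapped (12400 to 15580 and 14950 to 19330 RPKM). Their part in these differences was not tested.

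**Figure D2:**
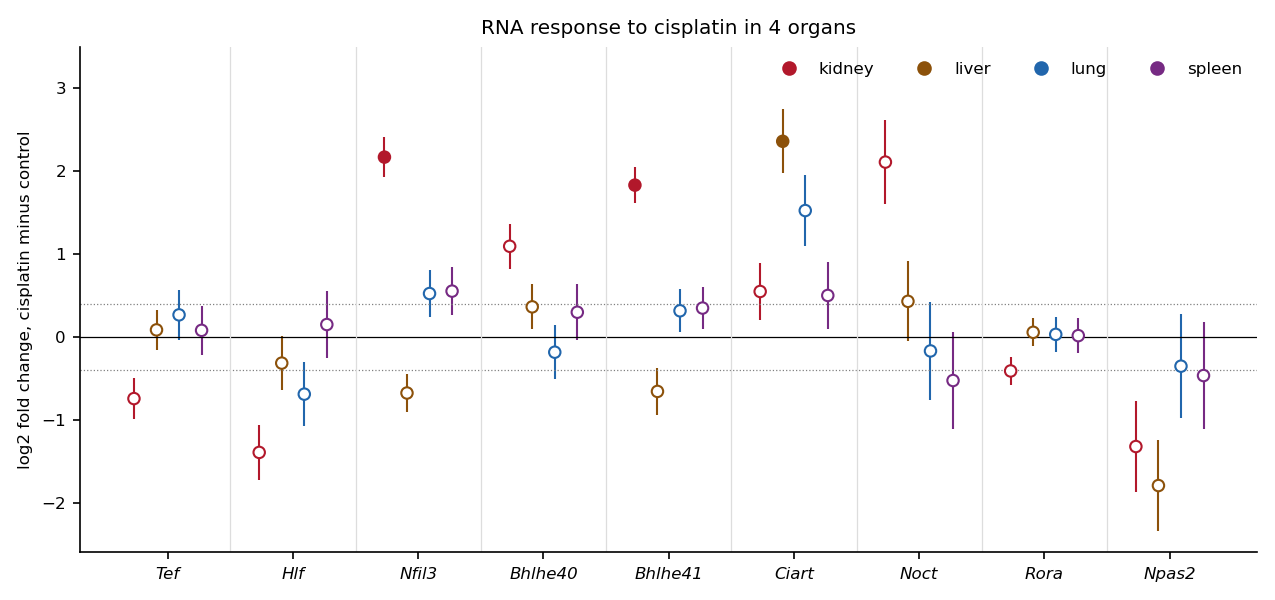
Log2 fold change of RNA (cisplatin minus control) with its standard error for the 9 genes in 4 organs, from the single fit of all organs; filled points passed the test, and dotted lines mark the tested size of 0.4. Nfil3 and Bhlhe41 in kidney and Ciart in liver are filled.

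In liver, 1 of the 9 genes rose and none fell, against a background of 2.71% of all genes, 0.408% higher and 2.30% lower. Ciart read 0.246 and 0.163 RPKM in controls and 1.11 and 0.997 after cisplatin. It was 5.14-fold higher (2.36 ± 0.39, log2 ± SE, adjusted p = 0.0122), and both treated libraries lay above both controls. The Ciart values rest on few reads, 15 and 10 in controls and 53 and 41 after cisplatin, so the size of the rise is poorly fixed. With liver fitted alone, where 0 of 13868 genes passed, the adjusted p was 0.224 (2.38 ± 0.59), and without the second liver control it was 0.0800. The antisense gene C920021L13Rik read 0.290 and 0.188 RPKM in liver controls and 0.501 and 0.603 after cisplatin (1.20 ± 0.51, adjusted p = 0.394). Its difference had the sign of Ciart in liver. It was 0.06 ± 0.47 in kidney and -0.63 ± 0.53 in spleen, where Ciart had 0.55 and 0.50. Its part in the Ciart values was not tested. The 6 lung markers, all in the files, summed to between 11.6 and 19.7 RPKM in liver controls and between 38.3 and 81.4 after cisplatin, the 3 fat markers to between 1.14 and 1.18 and between 8.67 and 62.7, and the 6 liver markers overlapped (51210 to 111200 and 76890 to 126300 RPKM), with no marker at 0. Whether they bear on the Ciart value was not tested.

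The other liver values were small or scattered. Npas2 read 2.65 and 4.44 RPKM in controls and 1.60 and 0.436 after cisplatin (-1.79 ± 0.54, adjusted p = 0.160), and without the first cisplatin library the adjusted p was 0.0121. Nfil3 read 45.7 and 58.0 RPKM and 34.3 and 30.6 (-0.68 ± 0.23, adjusted p = 0.377), and Bhlhe41 0.154 and 0.181 RPKM and 0.0986 and 0.115 (-0.66 ± 0.28, adjusted p = 0.493). These last 2 genes, the ones that rose in kidney, thus had lower values in both treated livers than in either control. Noct spanned 3.82 to 14.04 RPKM in controls and 8.83 to 15.2 after cisplatin (0.43 ± 0.48, adjusted p = 0.859), and the groups overlapped. Bhlhe40 (0.36 ± 0.27), Hlf (-0.32 ± 0.32), Tef (0.09 ± 0.24) and Rora (0.06 ± 0.17) had adjusted p of 0.785 or more.

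In lung 0 of the 9 genes passed (edgeR glmTreat), against 0.366% of all genes, all of them lower, and DESeq2 also called 0. Ciart was the 1 gene with an unadjusted p under 0.05, at 1.21 and 0.972 RPKM in the control libraries and 2.93 and 3.03 after cisplatin (1.53 ± 0.42, adjusted p = 0.271). It was 2.88-fold higher, and with each library kept as a sample the adjusted p was 0.0167. C920021L13Rik read 0.385 and 0.496 RPKM in lung controls and 1.12 and 1.38 after cisplatin (1.42 ± 0.57, adjusted p = 0.617). Nfil3 read 5.55 and 5.53 RPKM in controls and 7.23 and 8.70 after cisplatin (0.52 ± 0.29), and Hlf 3.66 and 3.78 and 2.65 and 2.01 (-0.69 ± 0.39), each with an adjusted p of 1. Markers of several tissues differed between the same libraries. Kidney markers summed to between 46.9 and 47.1 RPKM in lung controls and between 0.427 and 4.41 after cisplatin. Liver markers summed to 42.5 to 54.6 and 7.10 to 27.7, and erythroid markers to 6970 to 7317 and 2954 to 3752. Higher after cisplatin were markers of muscle (8.56 to 8.99 and 16.1 to 49.1) and of macrophages and neutrophils (2941 to 2990 and 3453 to 3460). The 5 spleen markers summed to between 66.8 and 68.1 RPKM in lung controls and between 14.4 and 19.6 after cisplatin, the 3 of lymph node high endothelium to between 55.7 and 57.1 and between 0.200 and 0.473, and the 3 of fat to between 125 and 127 and between 11.7 and 27.8, with Ccl21a at 0 in the controls. Their part in the lung values was not tested.

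In spleen 0 of the 9 genes passed, against 0.136% of all genes, 0.120% higher and 0.0157% lower. With edgeR 0 had an unadjusted p under 0.05, and DESeq2 also called 0. Every member had an adjusted p of 1, and the differences ran from -0.53 ± 0.58 for Noct (1.24 and 1.36 RPKM in controls, 0.961 and 0.874 after cisplatin) to 0.55 ± 0.29 for Nfil3 (3.53 and 3.58, 4.60 and 5.85). Ciart read 0.777 and 0.821 RPKM in controls and 1.19 and 1.10 after cisplatin (0.50 ± 0.41). The direction of Nfil3 and Ciart in spleen was that of lung, without passing in either. The 6 pancreas markers summed to between 5.08 and 5.51 RPKM in spleen controls, where Prss1 was at 0, and between 639 and 854 after cisplatin, and their part in these values was not tested. With 1 control sample and 2 treated ones, a difference of the size seen for Nfil3 was not detectable in lung or spleen.

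Whether a response differed between organs was tested in the same fit. It did for 1 of the 9 genes, Nfil3 (F test over 4 organs, adjusted p = 0.0293), against 0.209% of all genes. The kidney response of Nfil3 was 2.04 ± 0.28 (log2 ± SE) above the mean of the other 3 organs (adjusted p = 0.0133). Bhlhe41 missed in the F test (adjusted p = 0.0585) and passed for kidney against the mean of the other 3 (1.83 ± 0.26, adjusted p = 0.0165), where 0.450% of all genes passed. The F test of Nfil3 rested on few libraries. It missed the threshold without either kidney control (adjusted p = 0.134 and 0.0937), either cisplatin kidney (0.136 and 0.130), either liver control (0.0613 and 0.0891) or either cisplatin lung (0.0813 and 0.0813), and no member passed then. The response of Noct (adjusted p = 0.444), Ciart (0.396), Hlf (0.625), Bhlhe40 (0.640), Tef (0.657), Rora (0.882) and Npas2 (0.922) was not shown to differ between organs.

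After cisplatin the order of the organs was different for some of the genes. Nfil3, which in controls was far higher in liver than in kidney, stood at 36.7 and 36.9 RPKM in treated kidney and 30.6 and 34.3 in treated liver. Bhlhe41 kept its place, between 2.03 and 2.46 RPKM in kidney, below lung at 2.87 and 3.20 and spleen at 7.37 and 7.50. Ciart in liver, at 0.997 and 1.11 RPKM, came up to the level of treated kidney (1.13 and 1.15) and spleen (1.10 and 1.19).

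Long genes were lower after cisplatin as a class, which bears on Rora and Npas2. Genes of 100 kb and longer had a median log2 difference of -0.69, -0.82, -0.57 and -0.38 in kidney, liver, lung and spleen. Rora, at 734.5 kb, lay at -0.41 ± 0.17, 0.06 ± 0.17, 0.03 ± 0.21 and 0.02 ± 0.21 in the same organs. It was above the median of its length class in each. Npas2, at 169.5 kb, lay at -1.32 ± 0.55, -1.79 ± 0.54, -0.35 ± 0.62 and -0.47 ± 0.65, below that median in kidney, liver and spleen and above it in lung.

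Other clock genes were read from 3 lists. Of 12 core clock genes 11 were tested. Per1, the light- and stress-responsive period gene, rose in kidney (2.34 ± 0.43, adjusted p = 0.0194) and liver (2.47 ± 0.43, adjusted p = 0.0163), and no other gene of that list passed in any organ in the single fit. With lung fitted alone, which leaves 1 control sample, the difference of Per1 was 1.52. Dbp, the third PAR bZIP factor, had -1.63 ± 0.49 in kidney (adjusted p = 0.149), and 0.0348 with kidney alone. It was thus on the side of Hlf and Tef. Of 12 clock modifiers, all tested, Sirt1, a deacetylase that acts on the clock complex, rose in kidney (1.64 ± 0.29, adjusted p = 0.0207), Fbxw7, a ubiquitin ligase subunit, fell there (-1.39 ± 0.23, adjusted p = 0.0187), and Btrc, the ligase subunit that targets PER proteins, fell in liver (-2.28 ± 0.24, adjusted p = 0.00165). The liver calls of Per1 and Btrc ended with liver fitted alone (adjusted p = 0.0968 and 0.0912). Of 8 targets of the PAR bZIP factors, all tested, 0 passed in any organ. With kidney alone, where 5.05% of all genes were called, Cyp2a5, a drug-metabolising enzyme, was called higher (1.67, adjusted p = 0.0456). Ppara, a nuclear receptor of fatty acid metabolism, was called lower in that fit (-1.15, adjusted p = 0.0376). With lung alone, a fit with 1 control sample, Ppara had -1.995. Fat, kidney and liver markers were also lower in the treated lung libraries, and their part in the Ppara value was not tested. Per1 and Sirt1 were named by the study on these samples.

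Across the 14 RNA-seq samples, each taken relative to the mean of the controls of its organ, the genes most like Ciart were Ccdc130 (Pearson r = 0.961), Ppm1d (r = 0.951), a phosphatase that acts on the p53 pathway, and Mlst8 (r = 0.945), a subunit of the TOR complexes. These correlations are descriptions over samples that share controls and depth.

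XR-seq shows what share of the repair reads of a library fell on each gene in the treated mice. The total amount of repair in an organ does not enter, so higher or lower repair below means a higher or lower share. Values are CPM (counts scaled to the total of reads on genes in the library) per 1000 GG on the strand. On the TS, 8 of the 9 genes differed among organs (F test, adjusted p between 2.61e-06 and 0.00453), against 61.6% of all genes, and Bhlhe41 missed (adjusted p = 0.0697). Bhlhe41 passed with DESeq2 (adjusted p = 0.00951), and in the F test with TMM scaling (0.0363) or no filter on low counts (0.0023). The mean TS value was highest in liver for 5 genes, Tef, Hlf, Ciart, Rora and Npas2, in kidney for Nfil3, Bhlhe40 and Noct, and in lung for Bhlhe41. Of all genes with reads, 26.1% were highest in liver and 29.4% in kidney.

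The PAR bZIP pair and Npas2 had a clear liver excess. Tef TS read 101 and 83.7 in liver against 38.1 to 48.2 in the other 6 libraries, 2.12-fold above the mean of the other 3 organs (1.082 ± 0.11, log2 ± SE, adjusted p = 3.84e-06), a comparison that 52.8% of all genes passed. Hlf TS read 37.9 and 39.2 in liver, 27.6 and 24.2 in kidney, 15.7 and 18.3 in lung and 11.2 and 13.1 in spleen (liver 1.14 ± 0.10 above the others, adjusted p = 2.04e-06). Npas2 TS read 16.1 and 29.7 in liver, 12.1 and 9.15 in kidney, 7.15 and 3.70 in lung and 4.53 and 3.78 in spleen (liver 1.89 ± 0.23, adjusted p = 2.21e-05). The liver libraries lay above all others for each of these 3 genes. Rora, the longest, was nearly level, between 6.63 and 10.0 in all 8 libraries (liver 0.27 ± 0.07, adjusted p = 0.00899).

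For 3 of the genes whose RNA was higher in treated than in control kidneys, TS repair was highest in kidney. Nfil3 TS read 53.04 and 70.5 in kidney, 52.8 and 50.2 in lung, 33.9 and 30.8 in liver and 35.4 and 30.9 in spleen (kidney 0.70 ± 0.14, adjusted p = 0.00220, where 36.2% of all genes passed). Bhlhe40 TS read 58.5 and 74.0 in kidney and between 28.3 and 33.2 in the other 6 libraries (kidney 1.11 ± 0.18, adjusted p = 5.50e-04). Noct TS read 41.2 and 46.7 in kidney and between 17.7 and 31.2 elsewhere (kidney 0.84 ± 0.15, adjusted p = 9.72e-04). Kidney exceeded all other libraries for Nfil3, Bhlhe40 and Noct. Bhlhe41 and Ciart, whose RNA values were also higher in treated kidneys, had their highest TS repair in lung and in liver. The kidney libraries of Bhlhe41 were far apart, at 8.92 and 28.7, and lung read 39.6 and 50.5. Its F test passed without either kidney library (adjusted p = 0.00807 and 1.19e-04). No repair was measured in untreated mice, so these values compare organs and not treatments.

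**Figure D3:**
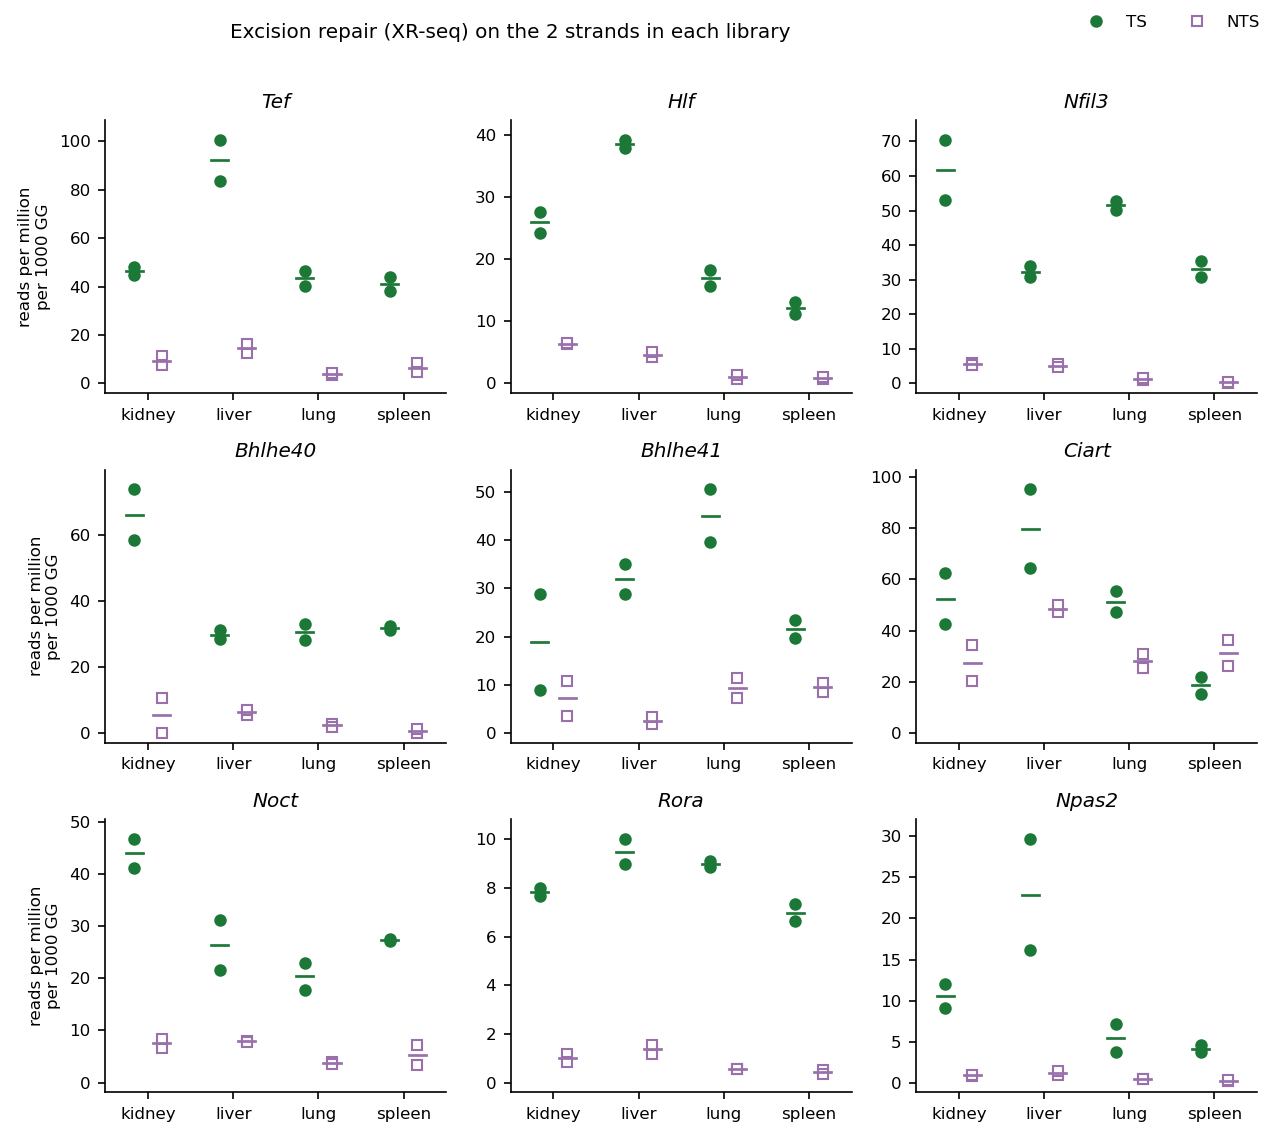
XR-seq CPM per 1000 GG on the TS (green circles) and the NTS (open purple squares) of the 9 genes in each of the 8 libraries; bars are means of 2 libraries. The TS lies above the NTS for 8 of the 9 genes, and for Ciart the strands are close and cross in spleen.

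Ciart stood apart in the share of the strands. Its TS read 95.1 and 64.4 in liver, 62.4 and 42.4 in kidney, 47.1 and 55.3 in lung and 21.9 and 15.4 in spleen, and its NTS read 47.1 and 49.9, 20.3 and 34.4, 25.5 and 31.01, and 26.1 and 36.4. The NTS of Ciart was thus the highest NTS of the 9 genes in every library, and in both spleen libraries it was above the TS. Since C920021L13Rik is transcribed from the opposite strand along the whole of Ciart, the strand called NTS for Ciart is the TS of that gene, whose own TS values were 38.2 and 36.5 in liver, 33.2 and 33.5 in kidney, 22.3 and 28.7 in lung and 24.4 and 29.8 in spleen. The files do not separate the repair that belongs to each gene.

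On the NTS, 5 of the 9 genes differed among organs (Tef, Hlf, Nfil3, Rora and Npas2, adjusted p between 1.06e-04 and 0.00642), against 32.3% of all genes. Without either kidney library the count was 8. Hlf NTS read 6.39 and 6.44 in kidney and 4.28 and 5.04 in liver, against 0.793 and 1.38 in lung and 0.715 and 0.977 in spleen. Nfil3 NTS had the same split, with 5.80 and 5.34 in kidney and 5.53 and 4.77 in liver, against 0.959 and 1.48 in lung and 0.278 and 0.456 in spleen. Kidney and liver were both above lung and spleen for these genes, and kidney exceeded the mean of the other 3 by 1.97 ± 0.23 for Hlf (adjusted p = 2.30e-04) and 2.05 ± 0.39 for Nfil3 (adjusted p = 0.00474), where 19.8% of all genes passed. The NTS of Bhlhe40 held 0 reads in the first kidney library and 119 in the second, and 0 and 15 in spleen. The zeros allow up to 0.409 and 0.705 in the same unit (3 counts per library, counting error only).

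The strand ratio, TS over NTS per GG, gives the excess of repair on the transcribed strand. It was above 1 at an adjusted p under 0.05 for 31 of the 36 pairs of gene and organ and below 1 for none. In kidney, liver, lung and spleen, 8, 7, 8 and 8 of the 9 genes passed, where 55.2%, 50.2%, 57.9% and 56.6% of all genes did, and 5.20%, 6.02%, 6.42% and 6.11% were lower on the TS. The 5 pairs that missed were Ciart in all 4 organs and Bhlhe40 in liver.

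The ratio of Nfil3 was 83.5 in spleen (6.38 ± 0.45, log2 ± SE, adjusted p = 5.21e-06) and 43.0 in lung (5.43 ± 0.41, adjusted p = 5.83e-06), against 10.99 in kidney and 6.30 in liver. Its TS lay between 30.8 and 70.5 over all libraries and its NTS between 0.278 and 5.80. Rora (16.1 and 16.5) and Hlf (16.1 and 14.3) likewise had higher ratios in lung and spleen than in kidney (7.82 for Rora, 4.03 for Hlf) and liver (6.98 and 8.31). Npas2 ran from 11.9 in lung and kidney to 19.2 in liver, Tef from 4.99 in kidney to 11.1 in lung, and Noct from 3.26 in liver to 5.86 in kidney. The median ratio of all genes tested was 5.79, 3.77, 7.62 and 7.44 in kidney, liver, lung and spleen. Differences of the ratio between organs were not tested. The call of Noct in liver ended without the first liver library (adjusted p = 0.0702).

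Bhlhe40 and Bhlhe41 rested on fewer NTS reads. The fitted log2 ratio of Bhlhe40 was 4.90 ± 1.47 in kidney, 5.78 ± 1.49 in spleen and 3.72 ± 1.25 in lung, with adjusted p of 0.0187, 0.00856 and 0.0282. Its size in kidney and spleen is poorly fixed, since 1 of the 2 NTS libraries held 0 reads in each. It was 2.79 in kidney without the library at 0 and 12.82 without the other, and 4.89 and 11.87 in spleen. Bhlhe41 reached 12.8 in liver (3.68 ± 0.47, adjusted p = 2.04e-04), 4.93 in lung, 2.57 in kidney (adjusted p = 0.0253) and 2.27 in spleen (adjusted p = 0.0414). The liver ratio of Bhlhe41 was thus the highest of its 4 by value, but a difference between organs was not tested. The antisense gene Gm43909 covers 25.6% of Bhlhe41, and its part in the NTS values was not tested. Single libraries decided several of these calls. Bhlhe40 missed in lung without either liver (adjusted p = 0.0568 and 0.0564) or either lung library (0.137 and 0.180), and in spleen without the first spleen library (0.0711). Bhlhe41 missed in kidney without the second kidney (0.0692), either liver (0.0661 and 0.0669) or the second lung library (0.0529), and in spleen without either liver (0.0968 and 0.0976), either lung (0.0715 and 0.0779) or either spleen library (0.131 and 0.130). Ciart had ratios of 1.94, 1.62, 1.81 and 0.590 in kidney, liver, lung and spleen, with adjusted p between 0.130 and 0.261, and passed in kidney without the second kidney library (adjusted p = 0.0249).

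**Figure D4:**
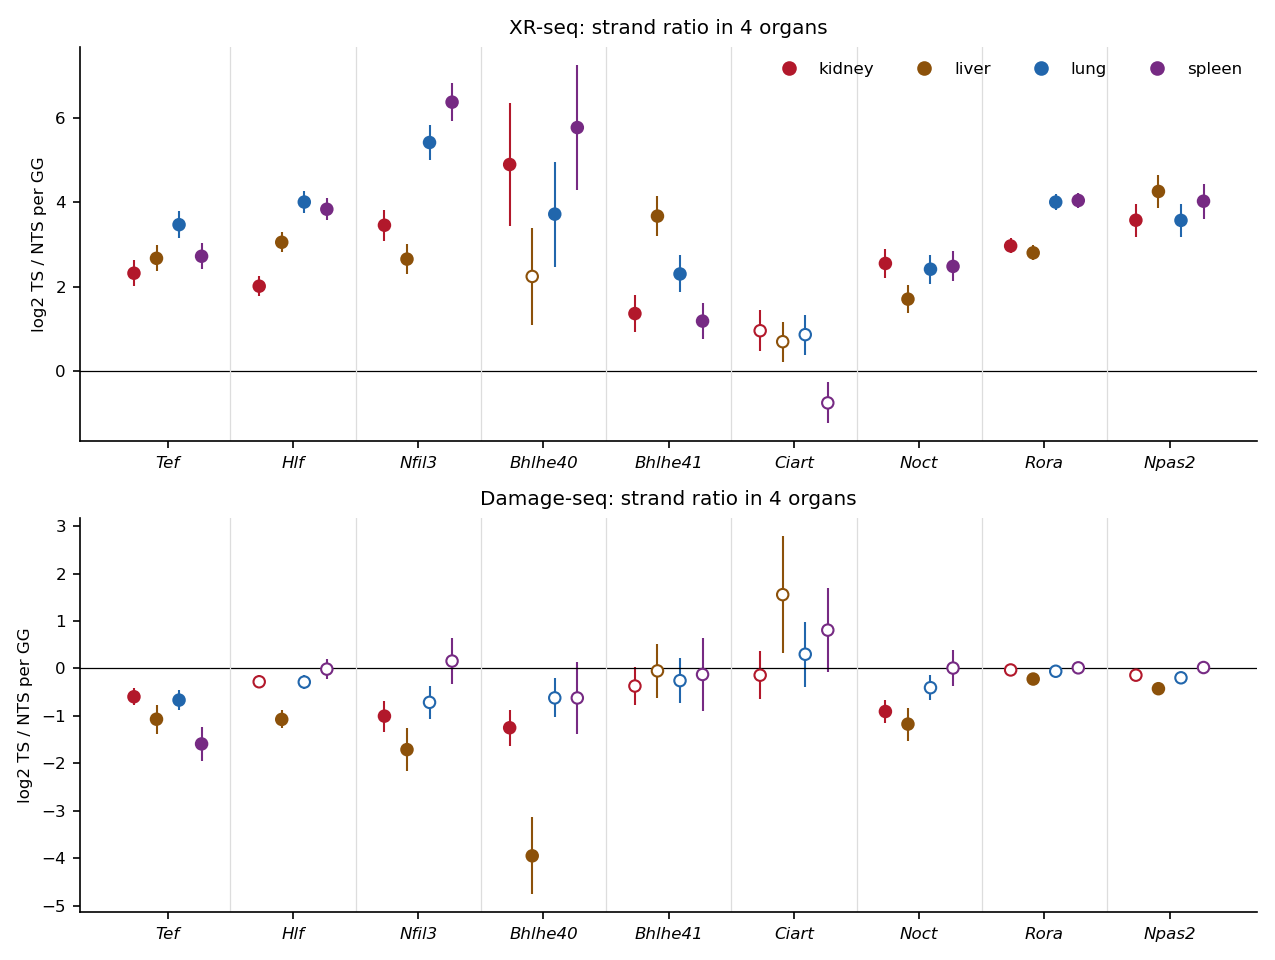
Log2 ratio of TS to NTS per GG with its standard error for the 9 genes in 4 organs, for XR-seq (upper panel) and Damage-seq (lower panel); filled points passed the test against equal strands. Repair is above 0 for all genes but Ciart in spleen, and damage is mostly at or below 0, lowest for Bhlhe40 in liver.

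Damage-seq counts were low for the short genes, between 0 and 51 reads per strand and library for Bhlhe40, Bhlhe41 and Ciart, so only large differences were detectable in them. On the TS, 3 of the 9 genes differed among organs, Tef, Hlf and Bhlhe40 (adjusted p = 1.33e-09, 3.42e-05 and 0.00373), against 33.9% of all genes. On the NTS, 2 did, Tef and Ciart (adjusted p = 4.47e-07 and 0.0132), against 18.9%. Values are again CPM per 1000 GG, so they are shares of a library and do not compare total damage between organs.

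Tef carried the clearest organ difference. Its TS read 12.2 and 19.5 in kidney, 7.15 and 8.30 in lung, 2.997 and 4.96 in liver and 4.62 and 2.74 in spleen, and kidney was 3.35-fold above the mean of the other 3 (1.75 ± 0.21, adjusted p = 1.85e-10, where 32.5% of all genes passed). Its NTS read 21.9 and 25.2 in kidney and between 7.79 and 14.4 in the other 6 libraries, 2.31-fold above (1.21 ± 0.16, adjusted p = 4.17e-08, where 27.7% passed). Kidney was thus above all other libraries on both strands. Hlf TS read 10.8 and 11.4 in kidney, 8.85 and 9.94 in spleen, 7.47 and 8.92 in lung and 5.10 and 5.02 in liver (liver -0.91 ± 0.18, adjusted p = 8.09e-05, where 16.4% of all genes passed), and its NTS lay between 9.52 and 15.2 throughout (F test adjusted p = 0.0857). Mean damage left on the TS was lowest in liver for Hlf, Ciart and Npas2, whose mean TS repair was highest there. It was also lowest in liver for Nfil3, Bhlhe40 and Noct, whose mean TS repair was highest in kidney. For Tef and Rora, with their highest TS repair in liver, TS damage was lowest in spleen and in kidney. The share of all genes with such a match was not computed, and a link between repair and damage was not tested.

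Bhlhe40 TS read 8.34 and 8.56 in kidney, 7.89 and 8.11 in lung, 2.97 and 5.28 in spleen and 1.16 and 0 in liver, where 2 and 0 reads were counted. The zero allows up to 2.87. Without the second liver library the F test missed (adjusted p = 0.0643). Ciart NTS read 16.2 and 15.2 in kidney, 5.71 and 4.31 in lung, 2.15 and 0 in liver and 0 and 11.8 in spleen, with kidney 2.09 ± 0.56 above the others (adjusted p = 0.00264). The zeros of liver and spleen allow up to 5.35 and 8.30. Its F test missed without either kidney (adjusted p = 0.207 and 0.0904) or the second liver library (0.0643), and without the first kidney or the second liver library 1 gene passed on the NTS. Rora and Npas2, with 144 to 2776 reads per strand and library, were nearly level among organs, between 8.35 and 10.7 for Rora and between 7.28 and 10.5 for Npas2 over both strands. Their F tests missed on either strand (adjusted p between 0.160 and 0.897).

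**Figure D5:**
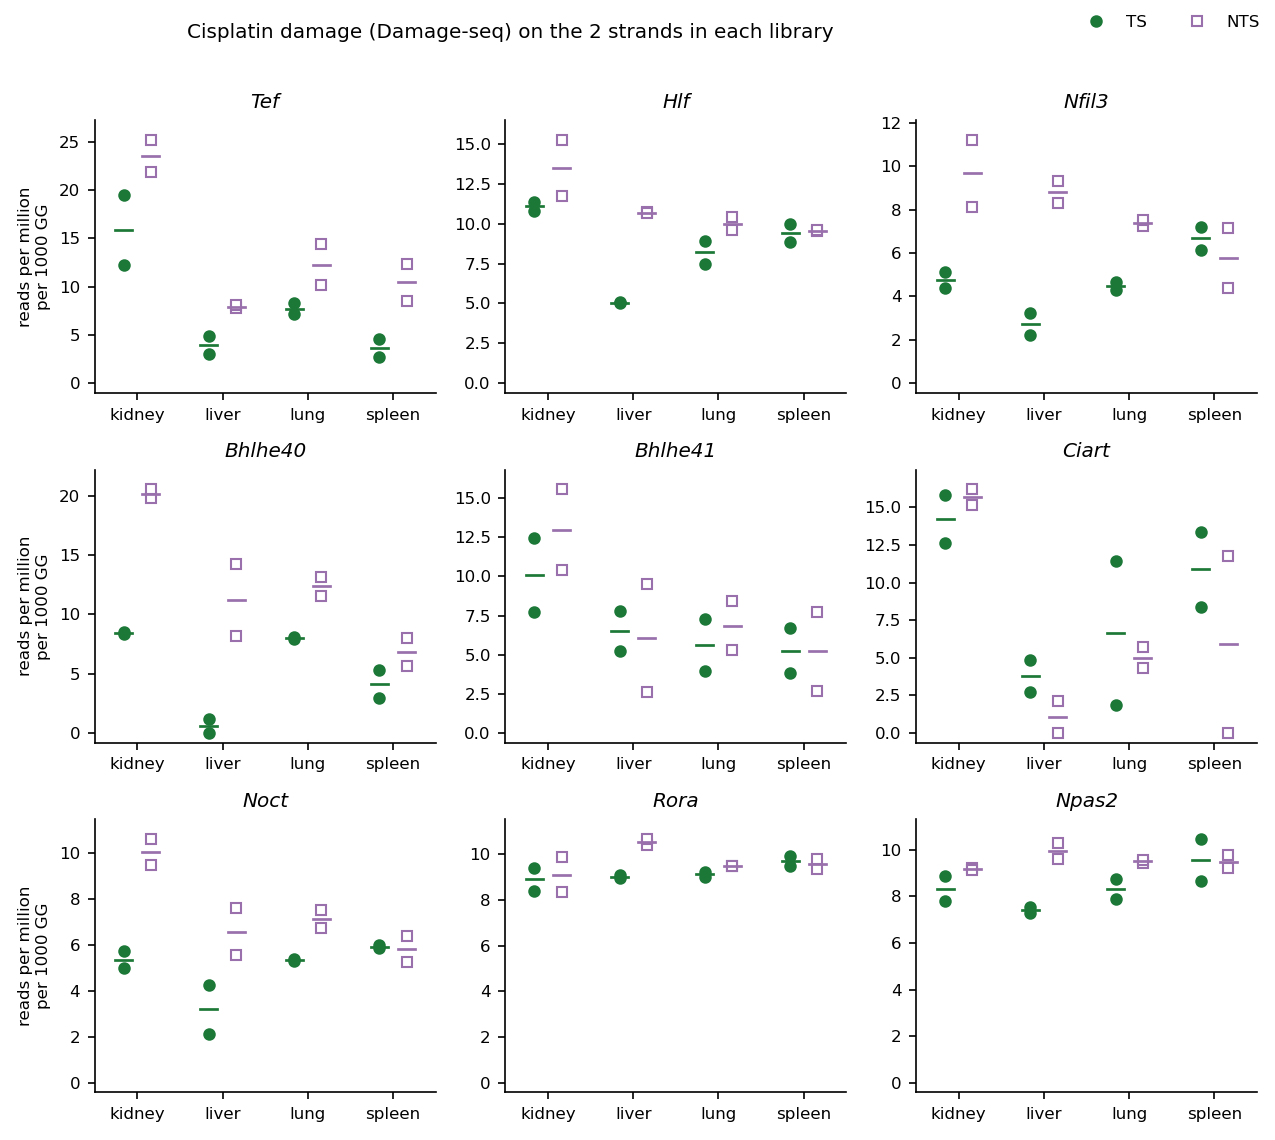
Damage-seq CPM per 1000 GG on the TS (green circles) and the NTS (open purple squares) of the 9 genes in each of the 8 libraries; bars are means of 2 libraries. Tef is highest in kidney on both strands, and the TS of Bhlhe40 is near 0 in liver.

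The damage left on the TS was below that on the NTS in 13 of the 36 pairs of gene and organ and above it in none, at an adjusted p under 0.05. Liver held 7 of these (all but Bhlhe41 and Ciart), kidney 4 (Tef, Nfil3, Bhlhe40 and Noct), and lung and spleen 1 each (Tef), where 32.7%, 20.9%, 27.1% and 13.1% of all genes were lower on the TS and 0.974%, 0.408%, 1.51% and 0.586% higher. Tef was the only gene of the 9 that passed in all 4 organs, with ratios of 0.661, 0.477, 0.630 and 0.332 in kidney, liver, lung and spleen (adjusted p = 0.00878, 0.00276, 0.00941 and 7.93e-04).

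In liver the log2 ratio of Bhlhe40 was -3.95 ± 0.82 (adjusted p = 1.35e-05), fitted on 2 and 0 TS reads, and ran from -6.87 to -3.55 over the alternatives. The liver ratio was 0.306 for Nfil3 (-1.71 ± 0.45, log2 ± SE, adjusted p = 9.01e-04), 0.444 for Noct, 0.475 for Hlf (-1.07 ± 0.19, adjusted p = 1.09e-06), 0.744 for Npas2 and 0.857 for Rora (-0.22 ± 0.05, adjusted p = 5.60e-05), and the median of all genes was 0.784. In kidney it was 0.421 for Bhlhe40, 0.498 for Nfil3 and 0.533 for Noct, with a median of all genes of 0.867. Bhlhe40 and Nfil3, the shortest of the genes called in kidney, thus had the lowest ratios there, and the long genes Npas2 and Rora were close to equal strands in kidney, lung and spleen (0.873 to 1.01). Many calls rested on a single library. In kidney Tef and Noct missed without the first library (adjusted p = 0.646 and 0.432), and Nfil3 and Bhlhe40 without either (0.292 and 0.263, 0.383 and 0.152). In liver Tef, Nfil3, Noct and Npas2 missed without the first library (0.345, 0.111, 0.731 and 0.0680), and Tef missed in lung without the second (0.240) and in spleen without the second (0.449). The liver calls of Bhlhe40, Hlf and Rora held in all 10 alternatives.

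The organ with the highest mean TS repair was the organ with the highest mean RNA after cisplatin for 4 of the 9 (Nfil3 and Bhlhe40 in kidney, Hlf and Rora in liver) and with the highest RNA in controls for 2 of the 9. The share of all genes with such a match was not computed, so these counts show no link between repair and RNA. Ciart had its highest TS repair in liver and its highest RNA in lung, and Bhlhe41 its highest TS repair in lung and its highest RNA in spleen. Tef had its highest TS repair in liver, its highest RNA after cisplatin in lung, and its highest damage on both strands in kidney. Kidney held the highest mean damage for 5 of the 9 genes on the TS and 7 of the 9 on the NTS, where it did for 42.3% and 39.2% of all genes with reads.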

How the data were processed

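Damage-seq, XR-seq and RNA-seq reads were aligned to mm10. Per the labels the authors used cutadapt, BWA, Picard, STAR, featureCounts and DESeq2, whose versions are not given in the sources used here. The deposited values are raw counts per gene and library, by strand for Damage-seq and XR-seq, and were used as deposited after removal of 1 row without a gene identifier from each Damage-seq and XR-seq file. The 9 members and all other gene lists were chosen with earlier results of these data known.

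The text names all 9 members, and genes of the clock lists where called in at least 1 organ. Dbp, Cyp2a5 and Ppara were called with an organ alone, and the genes most like Ciart were taken by their correlation over 14 samples. Genes with low counts were removed with filterByExpr. RNA-seq was fitted with edgeR 4.0.16 in R 4.3.3 as a single quasi-likelihood model of 8 groups with TMM scaling (6 residual degrees of freedom, 19100 genes). The response was tested with glmTreat against a log2 fold change of 0.4. For XR-seq and Damage-seq the library size was the reads on genes on both strands, and organs were compared by F tests. The strand ratio was fitted on both strands of each library, with the library as a block and the GG dinucleotides per strand as an offset. P-values were adjusted over all genes by Benjamini-Hochberg with a threshold of 0.05. SE is the log2 difference over the square root of F. Reads without molecular identifiers are not independent molecules, so limits for zero counts cover counting error only. Alternatives were DESeq2 1.42.0, other scaling, no filter, organs alone, each library as a sample, a test against 0, a replicate block, no GG term and each library left out. The fit without liver was added after seeing the data. The scripts were tested on simulated counts. Batches used by the study for correction are not in the labels and were not modelled.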

Additional observations from a re-analysis of the deposited data

Results flagged for a closer look

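The response of Nfil3 RNA to cisplatin differed between the 4 organs in a test of the difference itself (edgeR F test, adjusted p = 0.0293). The difference of kidney from the mean of the other 3 organs was 2.04 ± 0.28 (log2 ± SE) for Nfil3 (adjusted p = 0.0133) and 1.83 ± 0.26 for Bhlhe41 (adjusted p = 0.0165). The F test of Bhlhe41 missed (adjusted p = 0.0585), and that of Nfil3 was lost without any single kidney, liver control or treated lung library. For both genes the treated libraries were above the controls in kidney and below them in liver. Neither liver difference passed (glmTreat, adjusted p = 0.377 for Nfil3 and 0.493 for Bhlhe41). Bhlhe41 in liver rested on 28 and 33 reads in controls and 14 and 14 after cisplatin. Groups of 2 libraries are too small for a test of outlying samples.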

How the results depend on the processing

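Of the 9 genes, the number called in kidney RNA was 2. It was 4 with no filter on low counts, 5 with each library kept as a sample, 5 in a test against 0 and 4 with kidney alone. With DESeq2 it was 3, and without the liver libraries also 3, Noct being the gene added in both. In liver the 1 call became 2 with no filter and 0 with liver alone. In lung, 0 became 1 with each library kept as a sample. The response differed between organs for 1 gene, for 3 with no filter, for 2 with each library kept and for 3 with DESeq2. XR-seq TS gave 8, and 9 with DESeq2, TMM scaling, no filter or a replicate block, Bhlhe41 being the gene added. Damage-seq NTS gave 2, and 1 with DESeq2. With single libraries left out, the counts ran from 2 to 4 in kidney, 0 to 2 in liver, 0 to 0 in lung and spleen, 0 to 2 for the difference between organs, 8 to 9 for XR-seq TS, 5 to 8 for XR-seq NTS, 2 to 4 for Damage-seq TS, 1 to 3 for Damage-seq NTS, 27 to 32 of 36 for the XR-seq ratio and 9 to 13 for the Damage-seq ratio. Where no value shows it, the cause was not tested.

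Replicate numbers are shared by control and cisplatin libraries. The replicate differences of the groups correlated across genes at 0.242, 0.197, 0.0523 and 0.220 in kidney, liver, lung and spleen. Lung was under 0.1 and no label ties the numbers to an animal or batch, so the numbers were not taken to pair the libraries, although the other 3 organs leave pairing possible. With the replicate block, 6 genes were called in kidney (Noct, Bhlhe40, Hlf and Tef besides Nfil3 and Bhlhe41), 1 in lung (Ciart) and 5 for the difference between organs (Bhlhe41, Noct, Tef and Bhlhe40 besides Nfil3), and the F test of Bhlhe41 on the XR-seq TS passed (adjusted p = 0.0180).

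Signs turned for values that had not been called. With no filter this was Rora in spleen RNA (-0.0084), and with no GG term the Damage-seq ratio (log2) of Ciart in kidney (0.26) and of Hlf (0.0069), Nfil3 (-0.040) and Rora (-0.047) in spleen. With a library left out, spleen RNA ran from -0.0071 to 0.13 for Rora, from -0.29 to 0.47 for Hlf and from -0.84 to 0.11 for Npas2, and liver RNA from -0.10 to 0.25 for Tef and from -0.22 to 1.66 for Noct. The Damage-seq ratio ran from -0.0692 to 0.0088 for Rora in kidney, from -0.86 to 1.54 for Bhlhe41 in liver, from -1.08 to 0.46 for Bhlhe41 and from -1.57 to 1.38 for Ciart in lung, and in spleen from -0.10 to 0.054 for Hlf, from -0.22 to 0.71 for Nfil3, from -0.10 to 0.16 for Noct, from -0.048 to 0.085 for Rora, from -1.01 to 1.29 for Bhlhe41 and from -0.089 to 0.099 for Npas2. Depth limits the Damage-seq values of the short genes most.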
